A study of Mus musculus with 80 samples.

Results

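The 9 genes Sst, Npy, Vip, Cck, Penk, Pdyn, Tac1, Cort, and Crh, which encode precursors of neuropeptides, were followed from whole brain tissue through dissociation, ribosome pulldown, and microglial sorting. They were taken by symbol, and all 9 were listed in both full tables of the study, 9 of 16385 genes listed in either. All libraries came from brains of Cx3cr1(Jung)-cre/Ert2+;NuTRAP+ mice that had received tamoxifen at 100 mg/kg daily from about 3 months of age. After tamoxifen, Cre is active in cells that express Cx3cr1, which are microglia and other macrophages, and NuTRAP then tags their ribosomes with eGFP, so neurons were not the labeled cells. Input was the RNA of a preparation before the pulldown, and TRAP was the RNA recovered with the pulldown of eGFP-tagged ribosomes. TRAP can thus also hold RNA of cells without the tag.

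The sort comparison held Tissue (a whole homogenate, 4 mice), Cell (a papain and mechanical suspension made at 37°C without sorting, 4 mice), and cells sorted by autoMACS (4), autoMACS to Tyto (3), Tyto (5), or FACSAria (4). The cell preparation comparison held Tissue, Cell, CellInhib (the same digestion with actinomycin D, triptolide, and anisomycin), and Dounce (a mechanical dissociation kept at 4°C, followed by Percoll), with 4 mice each. Each preparation gave an Input and a TRAP library. In the sort comparison the Tissue and Cell libraries came from the same mice, and the Tissue libraries of the cell preparation comparison came from those mice again. The 16 sorted libraries of a fraction came from 10 mice, of which 6 gave libraries to 2 sorts, and none of these mice gave a Cell library. Cell and CellInhib shared a second set of mice, and Dounce came from other mice. Preparation and set of mice therefore cannot be told apart where sorted cells, Dounce, or the Cell and CellInhib groups of the cell preparation comparison are set against other mice.

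Neuropeptides are cut from larger precursors, stored in dense-core vesicles, and released by neurons to act on G protein-coupled receptors. In the forebrain, Sst, Npy, Vip, Cck, Cort, and Crh mark classes of inhibitory interneurons, some of them overlapping, and Cck is also made by many pyramidal cells. Penk, Pdyn, and Tac1 are best known from the projection neurons of the striatum. Microglia, the cells this design isolates, are not known as their main source.

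Somatostatin, the inhibitory peptide encoded by Sst (Gene ID 20604, chr16:23889581-23890844, minus strand), and cortistatin, its relative encoded by Cort (Gene ID 12854, chr4:149125191-149126741, minus strand), share receptors. Neuropeptide Y is encoded by Npy (Gene ID 109648, chr6:49822729-49829505, plus strand) and vasoactive intestinal peptide by Vip (Gene ID 22353, chr10:5639218-5647614, plus strand). Cholecystokinin is encoded by Cck (Gene ID 12424, chr9:121489824-121495689, minus strand), and corticotropin-releasing hormone, the peptide that starts the stress axis, by Crh (Gene ID 12918, chr3:19693401-19695396, minus strand). The opioid precursors are Penk, the source of enkephalins (Gene ID 18619, chr4:4133536-4138445, minus strand), and Pdyn, the source of dynorphins (Gene ID 18610, chr2:129688001-129689868, minus strand). Tac1 encodes substance P and neurokinin A (Gene ID 21333, chr6:7555071-7562973, plus strand). All positions are those of the authors' tables on mm10. The Pdyn interval there spans only part of the gene of the reference annotation, and Penk is overlapped by the opposite-strand gene A830012C17Rik, although the counting used strand.

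The coding sequences of Sst and Cort are shown because the relation of these genes is visible at the peptide-coding end and because stretches in common are where reads could be shared. Their best ungapped match of 30 bases (GENCODE models on GRCm38) had 27 identical bases, the highest of all pairs of the 9 coding sequences. Capitals mark identical bases.
Sst, from base 312 of 348 coding bases: CTGCAAGAACTTCTTCTGGAAgACaTTCaC
Cort, from base 288 of 327 coding bases: CTGCAAGAACTTCTTCTGGAAaACcTTCtC
The longest run of bases shared without a mismatch was 21.

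The promoters are shown because the cAMP response element, the binding site of CREB-family factors, is a textbook feature of the somatostatin promoter. Windows of 300 bases around the start of each RefSeq transcript (GRCm38.p6) were searched on both strands for the full element TGACGTCA and for its shorter core TGACG, which the full element contains. The windows of 7 of the 9 genes were in the table used, without Penk and Crh. The full element was found in 1 of the 7 genes, Sst, and in 2.03% of all 27025 genes. The core was found in 5 of the 7 genes and in 23.0% of all genes, and was not in the windows of Npy and Pdyn. Each sequence is written on the strand of its gene, and capitals mark the element, the core, or its complement CGTCA.
Sst, chr16:23890874-23890903, minus strand, 40 bases before the start: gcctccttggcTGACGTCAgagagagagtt
Vip, chr10:5639128-5639154, plus strand, 74 bases before the start: gatcactactgTGACGtctttcgggga
Cck, chr9:121495726-121495752, minus strand, 42 bases before the start: ctgctggactgCGTCAgcactgggtaa
Cort, chr4:149126766-149126792, minus strand, 13 bases before the start: tccggcttgtgCGTCAccgcgtgagtg
Tac1, chr6:7554853-7554879, plus strand, 192 bases before the start: ccctaaaattgCGTCAtttcgaacaca
Tac1, chr6:7555007-7555033, plus strand, 38 bases before the start: ctctacaggctCGTCAcgcctgagata
A match describes these letters only. The factor itself was not measured.

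Depth, as the sum of expected counts over listed genes, had a median of 15211942 per library in the sort comparison (range 7129464 to 20168116). In the cell preparation comparison the median was 10179908 (range 2471448 to 14650287), and Dounce-TRAP was lowest, with a median of 3403594. Levels are given as CPM, counts scaled to library size, after TMM scaling within a fraction. A gene was called changed when its FDR (Benjamini-Hochberg) in edgeR's quasi-likelihood test was below 0.1 and it changed more than 2-fold. Intervals of fold changes are 95% confidence intervals. The labels of the preparations were checked against markers. All 8 microglial markers were higher in Cell-Input than in Tissue-Input of the sort comparison (median log2 fold change 4.49), and all 8 were higher in Tissue-TRAP than in Tissue-Input (median 4.40). The summed level of 9 measured neuronal genes (Snap25, Syt1, Rbfox3, Tubb3, Stmn2, Eno2, Nefl, Nefm, and Uchl1) ranged from 7140 to 7430 CPM in Tissue-Input and from 538 to 1140 CPM in Cell-Input.

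In whole tissue, Cck, Sst, and Penk were the most abundant of the 9 transcripts. Per kb of transcript, the median level in Tissue-Input of the sort comparison was 272 CPM per kb for Cck, 228 for Sst, 178 for Penk, and 86.4 for Npy. Tac1 followed at 30.9 CPM per kb and Vip at 11.9. The lowest levels were 6.13 CPM per kb for Crh, 3.64 for Cort, and 2.47 for Pdyn, where the value for Pdyn is uncertain because of its short interval in the tables. Among neighbors in this order, the ranges over the 4 mice overlapped for Cck and Sst and for Crh and Cort, and the other ranges were apart. Coefficients of variation between mice ran from 2.73% for Penk to 25.5% for Cort.

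Dissociation into a cell suspension went with lower levels of 8 of the 9 transcripts, 7.98-fold lower for Penk to 26.7-fold lower for Sst, and Npy was the exception. In the sort comparison, where Tissue and Cell came from the same mice, 8 of 9 were called lower in Cell-Input than in Tissue-Input and 0 higher, against 17.5% of all genes called lower. The median log2 fold change of the 9 was -3.53, against 0.17 over all genes tested. Fewer neurons, less RNA per neuron, and a larger share of RNA from other cells cannot be told apart in these bulk libraries, since CPM is relative. By flow cytometry, the paper reports a higher percentage of neurons in Dounce-Input than in Cell-Input or CellInhib-Input.

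Among the interneuron peptides, Sst was 171, 179, 150, and 159 CPM in the 4 Tissue-Input libraries and 7.99, 7.56, 4.36, and 4.82 CPM in the 4 Cell-Input libraries. Every Cell-Input library was far below every Tissue-Input library, and Sst had the largest fall of the 9 (26.7-fold lower, log2 fold change -4.74, SE 0.26, FDR 1.82e-13). Vip, the marker of another interneuron class, was 17.5, 18.01, 18.4, and 19.97 CPM in Tissue-Input and 3.51, 1.01, 1.75, and 1.70 CPM in Cell-Input. The groups did not overlap (log2 fold change -3.21, SE 0.48, FDR 9.75e-06). Cck was 225, 193, 212, and 224 CPM in Tissue-Input and 20.4, 10.9, 7.71, and 9.81 CPM in Cell-Input (-4.13, SE 0.29, FDR 4.53e-11). Cort, close to the detection limit in suspension, had counts of 53, 39, 41, and 71 in Tissue-Input and 6, 2, 4, and 1 in Cell-Input (-3.67, SE 0.60, FDR 5.56e-05). Crh was 7.32, 9.24, 6.15, and 8.85 CPM in Tissue-Input and 1.49, 0.504, 0.160, and 0.587 CPM in Cell-Input (-3.53, SE 0.65, FDR 9.42e-05). The groups were apart for Cck, Cort, and Crh as well. How many of all genes had groups apart in this comparison was not counted, so the separation is a description of each gene.

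The striatal peptides were called lower too. Penk was 266, 262, 250.2, and 255 CPM in Tissue-Input and 50.2, 25.7, 33.8, and 19.8 CPM in Cell-Input, a 7.98-fold fall (log2 fold change -2.996, SE 0.28, FDR 1.5e-09). Tac1 was 38.4, 39.1, 37.5, and 34.6 CPM in Tissue-Input and 4.35, 3.28, 2.13, and 1.59 CPM in Cell-Input (-3.73, SE 0.34, FDR 1.22e-09). Pdyn was 6.09, 3.51, 6.15, and 5.68 CPM in Tissue-Input and 1.23, 0.441, 0.425, and 0.470 CPM in Cell-Input (-3.05, SE 0.52, FDR 1.89e-05). None of the 3 genes had overlapping groups, again without a share over all genes to set beside this. All 8 genes called lower were highest in the first of the 4 Cell-Input libraries, which was not the one with the highest Npy.

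Npy, made by interneurons and other GABAergic cells, was not called. Its levels were 51.1, 46.7, 46.3, and 52.98 CPM in Tissue-Input and 52.6, 11.1, 65.7, and 28.01 CPM in Cell-Input. Cell-Input libraries thus lay on both sides of the narrow Tissue-Input range, and within the 4 mice the ratio of Cell to Tissue was 1.03, 0.238, 1.42, and 0.529. The log2 fold change was -0.32 (95% interval -1.34 to 0.69, FDR 0.569), which includes no change as well as a 2-fold fall. For the other 8 genes the highest ratio of Cell to Tissue in any mouse was 0.204, for Crh. The coefficient of variation of Npy was 62.2% in Cell-Input and 6.66% in Tissue-Input.

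Npy was again the one gene not called in the cell preparation comparison, whose Cell libraries came from other mice than its Tissue libraries. There too 8 of 9 genes were called lower in Cell-Input than in Tissue-Input and 0 higher, against 19.1% of all genes called lower (median of the 9 -4.05, of all genes 0.05). Sst was 198, 188, 181, and 188 CPM in Tissue-Input and 4.09, 1.36, 3.69, and 7.06 CPM in Cell-Input (46.3-fold lower, log2 fold change -5.53, SE 0.30, FDR 5.43e-12). Tac1 was 51.04, 59.1, 45.4, and 55.7 CPM in Tissue-Input and 0.839, 1.17, 1.34, and 0.954 CPM in Cell-Input (48.7-fold lower, -5.61, SE 0.44, FDR 8.9e-10). These falls were larger than in the sort comparison, a difference that was not tested. Crh was 7.84, 9.997, 9.68, and 14.03 CPM in Tissue-Input and had counts of 3, 2, 2, and 0 in Cell-Input, too few for a fold change (FDR 2.65e-08). The log2 fold change was -5.04 for Cck, -4.05 for Cort, -3.80 for Vip, -3.14 for Penk, and -2.37 for Pdyn, all with an FDR of at most 0.000133. Cort was close to the detection limit in Cell-Input, at 0% to 0.572% of the summed CPM of the 9 genes, so its fold change is uncertain. Npy was 77.97, 72.2, 65.05, and 64.2 CPM in Tissue-Input and 80.7, 52.9, 26.6, and 51.1 CPM in Cell-Input. Its groups overlapped, with 1 Cell-Input library above all Tissue-Input libraries (-0.40, 95% interval -1.02 to 0.22, FDR 0.229).

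**Figure D1:**
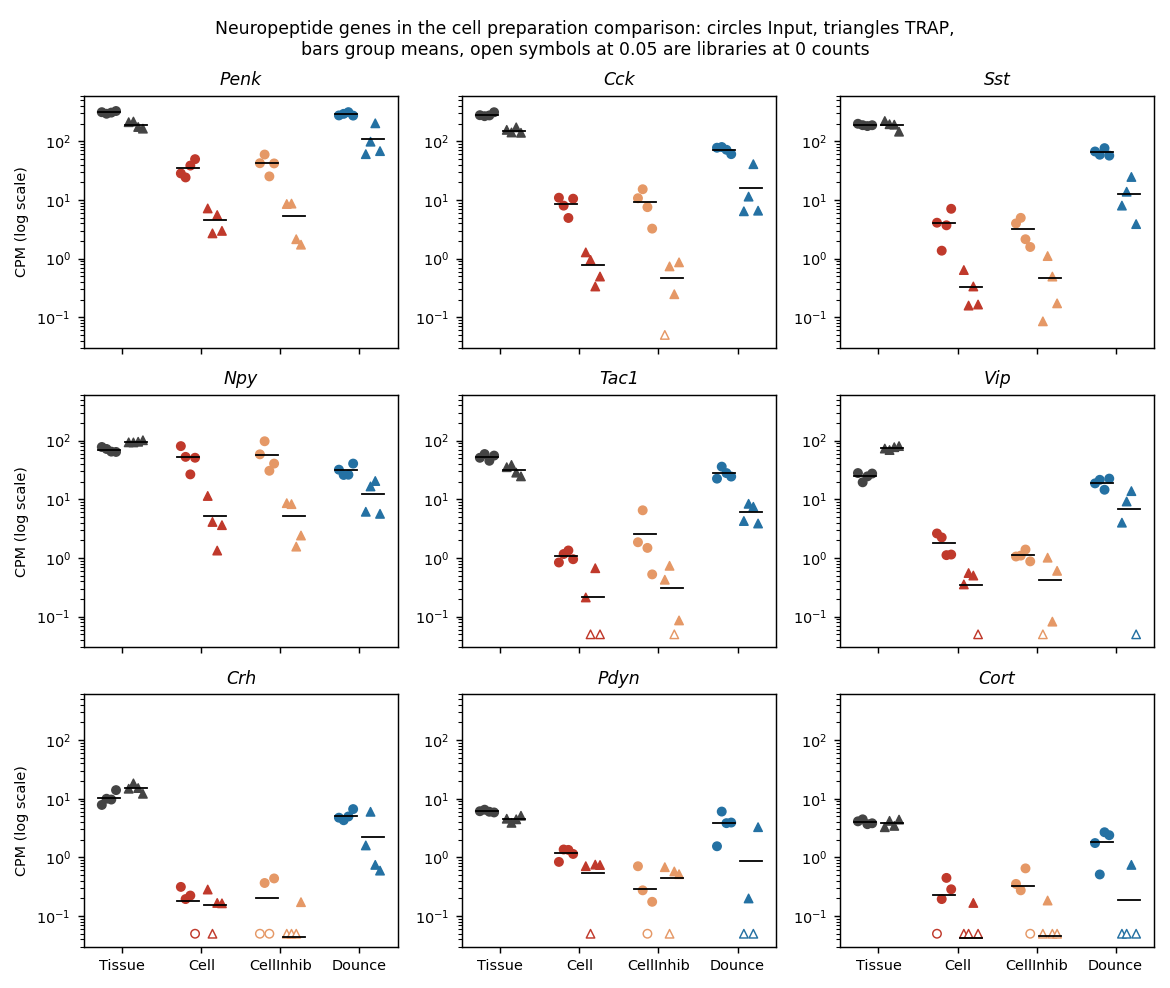
Levels of the 9 genes in the cell preparation comparison, with 1 panel per gene, preparations along the x axis, and CPM on a log y axis. Each point is 1 library (circles for Input, triangles for TRAP, which were normalized separately), bars are group means, and open symbols at the bottom are libraries with a count of 0. Npy is the gene whose Cell-Input and CellInhib-Input circles reach the Tissue-Input circles, at 26.6 to 97.7 CPM against 64.2 to 77.97 CPM.

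**Figure D2:**
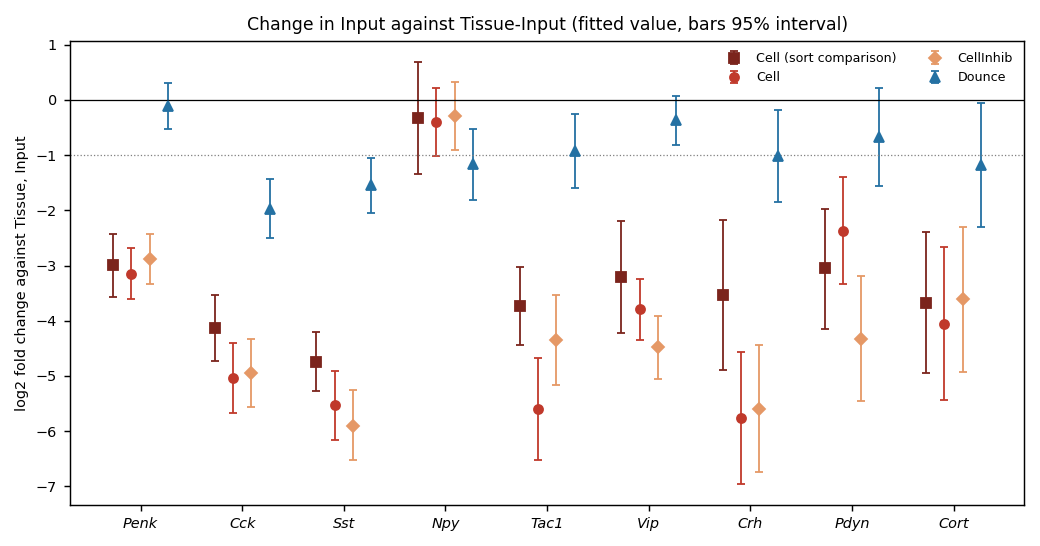
Log2 fold change against Tissue-Input (y axis) for each of the 9 genes (x axis) in 4 comparisons, Cell in the sort comparison and Cell, CellInhib, and Dounce in the cell preparation comparison, with 95% confidence intervals as bars and a dotted line at a 2-fold fall. Sst lies at -4.74 and -5.53 in the Cell comparisons and Npy at -0.32 and -0.40, and Dounce lies between -1.97 for Cck and -0.11 for Penk.

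The makeup of the neuropeptide transcript pool differed between Tissue and Cell. The summed CPM of the 9 genes ranged from 728 to 785 in Tissue-Input and from 60.6 to 142 in Cell-Input of the sort comparison. The mean share of Npy in that sum was 6.51% in Tissue-Input and 38.4% in Cell-Input, while the share of Sst was 21.7% in Tissue-Input and 7.26% in Cell-Input. In the cell preparation comparison the share of Npy was 7.36% in Tissue-Input, 49.1% in Cell-Input, and 47.9% in CellInhib-Input. In Dounce-Input it was 6.11%, and there Penk made up 56%. These shares weigh a gene by its transcript length, and they are a description with no test.

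**Figure D3:**
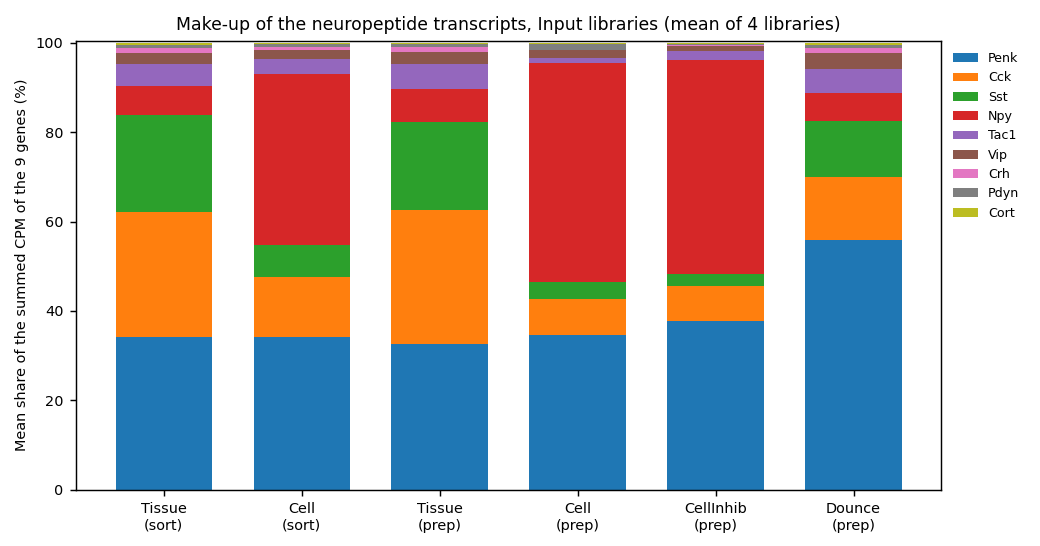
Mean share of each gene in the summed CPM of the 9 genes (y axis, percent) for the Input groups of both comparisons (x axis), stacked by gene. Npy widens from 6.51% to 38.4% between Tissue-Input and Cell-Input of the sort comparison and from 7.36% to 49.1% in the cell preparation comparison.

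Other cell types moved with dissociation, and their summed marker levels are given beside these results. In Cell-Input of the sort comparison all 6 oligodendrocyte markers were called higher (sums of 3120 to 3740 CPM in Tissue-Input and 9650 to 14400 CPM in Cell-Input), and 4 of 7 astrocyte markers (3330 to 3580 and 7310 to 9770 CPM). All 5 endothelial markers were higher (41 to 54 and 736 to 1410 CPM), as were all 5 ependymal and choroid plexus markers (681 to 1010 and 1690 to 4550 CPM). Microglial markers summed to 224 to 352 CPM in Tissue-Input and 4610 to 6100 CPM in Cell-Input. No marker of these lists was at 0 in all libraries of either group. The part of these cells in the level of Npy was not tested.

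Neuronal genes as a whole were lower after dissociation, so each gene was also set against the 9 neuronal genes. The summed level of these genes in Cell-Input was 11.5% of the Tissue-Input mean in the sort comparison and 6.82% in the cell preparation comparison. The measure was the difference in the log2 ratio of a gene to this sum, tested by an exact two-sided permutation test of 4 against 4 libraries, whose smallest p is 0.0286 (0.0617 after adjustment over 54 tests). The test was unpaired. It was run on the 9 genes only, so no share over all genes stands beside its counts of called genes. A call at the smallest p means only that the groups did not overlap. Where both groups came from the same 4 mice, a paired exact test could not go below p = 0.125, so the number of mice with each direction is given instead.

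Relative to the neuronal genes, Npy rose in every suspension made at 37°C. Its log2 ratio differed by 2.56 in Cell-Input of the sort comparison, 3.40 in Cell-Input of the cell preparation comparison, and 3.43 in CellInhib-Input, with no overlap between groups and an adjusted exact p of 0.0617 in each. Within the mice of the sort comparison the ratio of Npy was higher in Cell-Input in 4 of 4, by 0.93 to 4.23. Sst fell relative to the neuronal genes in the same 3 comparisons, with differences of -1.60, -1.83, and -2.16 (adjusted exact p 0.0617 in each). Cck fell as well, with -1.05, -1.19, and -1.28 (adjusted exact p 0.0617 in each). In the sort comparison the ratios of Sst, Cck, and Tac1 were each lower in Cell-Input in 4 of 4 mice. Tac1 differed by -0.64 in Cell-Input of the sort comparison and by -1.66 in that of the cell preparation comparison (adjusted exact p 0.0617 in both), and its difference of -0.99 in CellInhib-Input did not pass (adjusted exact p 0.234). Penk differed by 0.09 (adjusted exact p 0.957), 0.71 (0.0617), and 0.92 (0.154). Vip differed by -0.16, 0.05, and -0.58, and none of these passed the threshold of 0.1 (lowest adjusted exact p 0.11). Pdyn differed by 0.06 (adjusted exact p 0.957), 1.55 (0.0617), and -0.93 (0.475), so it was called higher in Cell-Input of the cell preparation comparison and in neither of the others. In all, 3 genes were called lower and 1 higher relative to the neuronal genes in the sort comparison. In Cell-Input of the cell preparation comparison 4 were lower (Sst, Cck, Tac1, and Crh) and 3 higher (Npy, Penk, and Pdyn). There Crh (-1.87) rested on at most 3 counts per library. How many of all genes would be called in this way was not tested.

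**Figure D4:**
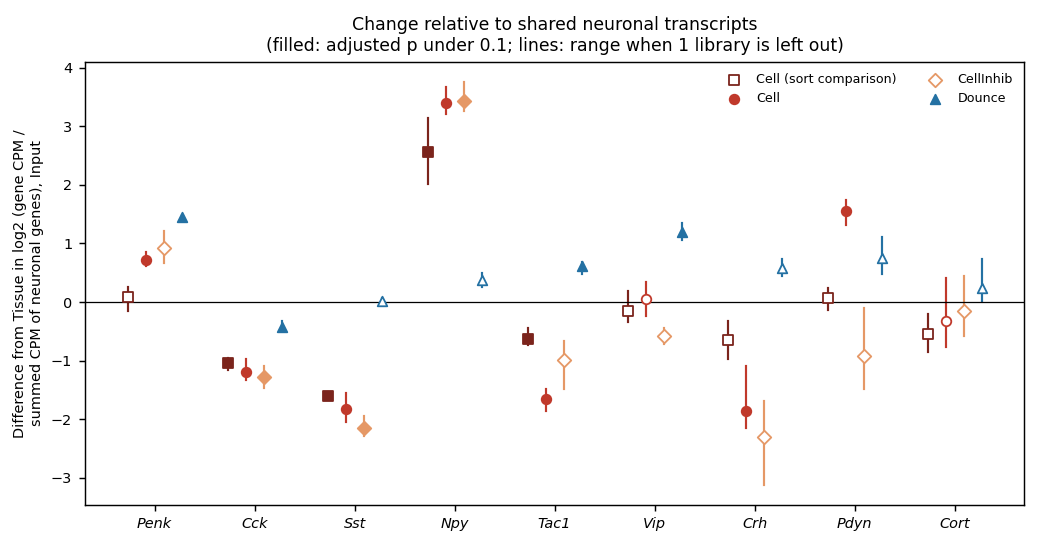
Difference in the log2 ratio of each gene to the summed CPM of 9 neuronal genes (y axis) against Tissue-Input, by gene (x axis) and comparison. Filled points passed an adjusted p under 0.1 and lines span the values when 1 library was left out in turn. Npy lies at 2.56, 3.40, and 3.43 in the suspensions made at 37°C and at 0.38 in Dounce, while Sst lies at -1.60, -1.83, -2.16, and 0.01.

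Transcription and translation inhibitors were included to limit the response of cells to the digestion. With them, the level of no gene of the 9 was called different from the suspension without them in edgeR's quasi-likelihood test, while the ratio of Pdyn to the neuronal genes was called lower. In CellInhib-Input 8 of 9 genes were again called lower than in Tissue-Input, against 20.2% of all genes, and Npy was not (58.5, 97.7, 30.7, and 40.7 CPM, log2 fold change -0.30, FDR 0.372). Between CellInhib-Input and Cell-Input of the same mice, 0 of 9 genes were called in edgeR's quasi-likelihood test, against 0.311% of all genes called. Of the 9, 3 had an unadjusted p under 0.05 in that test, a threshold for which the share over all genes was not counted. DESeq2 and limma also called 0. The 95% interval of the difference was -0.51 to 0.72 for Npy, -0.17 to 0.70 for Penk, -0.54 to 0.72 for Cck, and -1.10 to 0.37 for Sst, so a 2-fold change of Npy, Penk, or Cck lies outside its interval.

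The largest difference between the suspensions with and without inhibitors was that of Pdyn, with counts of 8, 14, 12, and 12 in Cell-Input and 8, 3, 0, and 2 in CellInhib-Input. The log2 fold change was -1.96 (unadjusted p 0.00364, FDR 0.597 in edgeR's quasi-likelihood test), and relative to the neuronal genes Pdyn differed by -2.48 (adjusted exact p 0.0617, unpaired). This ratio was lower with inhibitors in 4 of 4 mice, by 0.18 to 5.25 on the log2 scale. The 2 groups touched at 8 counts. Tac1 had counts of 8, 12, 12, and 10 in Cell-Input and 21, 71, 16, and 6 in CellInhib-Input (1.26, unadjusted p 0.0259, FDR 1), where the second mouse stood above the other 3. Vip differed by -0.68 (unadjusted p 0.0411, FDR 1).

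After mechanical dissociation at 4°C more of these transcripts were found. In Dounce-Input 5 of 9 genes were called lower than in Tissue-Input and 0 higher, against 21.4% of all genes called lower (median of the 9 -1.01, of all genes 0.10). Against Cell-Input, 8 of 9 were called higher in Dounce-Input, against 28.8% of all genes called higher. The neuronal sum was 33.9% of the Tissue-Input mean. The paper reports that RNA integrity and RNA yield were lowest in Dounce-Input, which needed an entire brain. It also reports more 3' bias of coverage in Tissue-Input and Dounce-Input than in Cell-Input or CellInhib-Input. The part of RNA quality in the Dounce levels and ratios was not tested.

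The opioid and tachykinin genes Penk, Pdyn, and Tac1 were among the members with the smallest differences from tissue, as was Vip (log2 fold change -0.36). This did not hold for striatal genes as a list. Of 10 genes of striatal projection neurons, 6 were called lower in Dounce-Input than in Tissue-Input and 1 higher (median -1.19). Penk was 313, 294, 308, and 328 CPM in Tissue-Input and 276, 293, 313, and 274 CPM in Dounce-Input. The ranges overlapped, and the log2 fold change was -0.11 (95% interval -0.52 to 0.31, FDR 0.639). In Cell-Input, Penk was 28.3, 24.2, 38.5, and 49.5 CPM, so Dounce-Input held 8.22 times as much (FDR 1.86e-10). Pdyn was 1.55, 6.04, 3.83, and 3.93 CPM in Dounce-Input against 6.13, 6.50, 6, and 5.84 CPM in Tissue-Input (-0.67, FDR 0.16), where 1 Dounce-Input library lay within the Tissue-Input range and 3 lay below it. Tac1 was 22.5, 36.1, 28, and 24.4 CPM in Dounce-Input against 51.04, 59.1, 45.4, and 55.7 CPM in Tissue-Input. The groups did not overlap, and the change (-0.93, SE 0.32, FDR 0.0134) stayed under the 2-fold threshold.

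Among the interneuron peptides, Vip was 18.7, 21.5, 14.6, and 22.6 CPM in Dounce-Input against 28.03, 19.5, 24.6, and 27.5 CPM in Tissue-Input, which overlapped (-0.36, FDR 0.13). Sst was 66.9, 58.9, 76.3, and 56.9 CPM in Dounce-Input, below every Tissue-Input library (-1.55, SE 0.24, FDR 7.21e-06). Cck was 77.6, 79.7, 71.5, and 60.3 CPM against 278, 268, 276, and 312 CPM in Tissue-Input, the largest fall of the 9 (-1.97, SE 0.25, FDR 9.08e-07). Cort was 1.76, 0.512, 2.69, and 2.39 CPM against 4.12, 4.46, 3.68, and 3.82 CPM (-1.18, SE 0.54, FDR 0.0535), and its call was lost without the second Dounce-Input library. Crh was 4.75, 4.30, 4.99, and 6.66 CPM against 7.84, 9.997, 9.68, and 14.03 CPM (-1.01, SE 0.39, FDR 0.0266), and its call was lost without any of 3 libraries (the first or second Dounce-Input or the fourth Tissue-Input). Tac1 and Pdyn were called lower without the second Dounce-Input library.

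Npy did not follow the other 8 genes between Cell and Dounce. It was 32.02, 26.02, 26.3, and 40.6 CPM in Dounce-Input, below every Tissue-Input library (-1.16, SE 0.31, FDR 0.00208), and it was the single gene of the 9 that was not called higher in Dounce-Input than in Cell-Input. Its log2 fold change between these was -0.76 (FDR 0.0285), in the lower direction and under the 2-fold threshold. Relative to the neuronal genes, Npy differed by 0.38 between Dounce-Input and Tissue-Input (adjusted exact p 0.11), and by -3.02 between Dounce-Input and Cell-Input (adjusted exact p 0.0617). Penk (1.45), Vip (1.19), and Tac1 (0.62) were higher and Cck was lower (-0.42) relative to the neuronal genes in Dounce-Input than in Tissue-Input (adjusted exact p 0.0617 in each). The direction for Cck depended on how the neuronal genes were combined, since it was 0.19 with their geometric mean (adjusted exact p 0.264). With the geometric mean 7 of the 9 genes were called higher and 0 lower in that comparison.

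Markers of other cells also moved with the Dounce preparation, some as in the suspensions made at 37°C and some the other way. All 8 microglial markers were called higher in Dounce-Input than in Tissue-Input (268 to 289 CPM in Tissue-Input and 1730 to 2790 CPM in Dounce-Input, median 2.95), as in Cell-Input. All 5 ependymal and choroid plexus markers were called lower in Dounce-Input than in Tissue-Input (995 to 1550 CPM in Tissue-Input and 114 to 170 CPM in Dounce-Input), and 3 of 5 endothelial markers were lower (58.4 to 63.8 and 24.5 to 31.1 CPM). Of 7 astrocyte markers 3 were lower (4230 to 4580 and 1290 to 3570 CPM), and 4 of 6 oligodendrocyte markers were higher (4190 to 5240 and 6540 to 7420 CPM). Of 8 cerebellar granule neuron genes, 5 were higher and 0 lower (median 1.23). The part of these cells in the neuropeptide levels was not tested.

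Tissue-TRAP against Tissue-Input compares pulled-down RNA with its own homogenate, without any dissociation. Neuronal RNA remained in Tissue-TRAP, although neurons were not the labeled cells. In the sort comparison the 9 neuronal genes summed to 5150 to 5750 CPM in Tissue-TRAP and 7140 to 7430 CPM in Tissue-Input. Of these 9 genes 0 were called (median -0.29). How RNA of unlabeled cells came to be in Tissue-TRAP was not tested. Vip was called higher in Tissue-TRAP than in Tissue-Input and no gene was called lower. In the sort comparison 1 of 9 genes was called higher, against 9.02% of all genes, and in the cell preparation comparison 1 of 9, against 8.21%. Vip was 17.5, 18.01, 18.4, and 19.97 CPM in Tissue-Input and 60.3, 39.8, 54.1, and 64.5 CPM in Tissue-TRAP of the sort comparison, levels scaled within each fraction. In the fit of both fractions together, the log2 fold change was 1.72, SE 0.28, FDR 9.02e-05. In the cell preparation comparison, with new libraries of the same mice, it was 1.81, SE 0.38, FDR 0.000402. The ratio of TRAP to Input within the 4 mice was 3.81, 2.47, 3.24, and 3.59 in the sort comparison and 3.06, 4.15, 3.65, and 3.40 in the cell preparation comparison, so Vip was higher in TRAP in 4 of 4 mice in both.

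No other gene was called in tissue. Npy was higher in TRAP in 4 of 4 mice in both comparisons (ratios of 1.58, 1.78, 1.48, and 1.38 in the sort comparison), but its log2 fold changes of 0.63 (FDR 0.194) and 0.68 (FDR 0.256) did not pass. Crh had ratios of 1.90, 1.63, 2.01, and 1.44 in the sort comparison (0.78, FDR 0.0578, under the 2-fold threshold). Sst lay on both sides of 1, with ratios of 1.30, 1.24, 1.08, and 0.951 (0.20, FDR 0.536). Cck had ratios of 0.611, 0.621, 0.618, and 0.615 (-0.70, FDR 0.014), and Tac1 had 0.652, 0.635, 0.551, and 0.603 (-0.71, FDR 0.00525), both below the fold threshold. Penk was also below 1 in 4 of 4 mice (0.726, 0.772, 0.641, and 0.721). Pdyn and Cort also lay on both sides of 1. Of 10 genes of striatal projection neurons, 5 were called lower in Tissue-TRAP and 0 higher (median -1.03), and of 16 genes of GABAergic interneurons 0 were called (median 0.39). A call was not particular to Vip among peptide genes. Of 21 other neuropeptide precursors, 4 were called higher in Tissue-TRAP of the sort comparison and 0 lower (median 0.23). In the cell preparation comparison 1 of 18 was called higher and 0 lower (median 0.22).

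**Figure D5:**
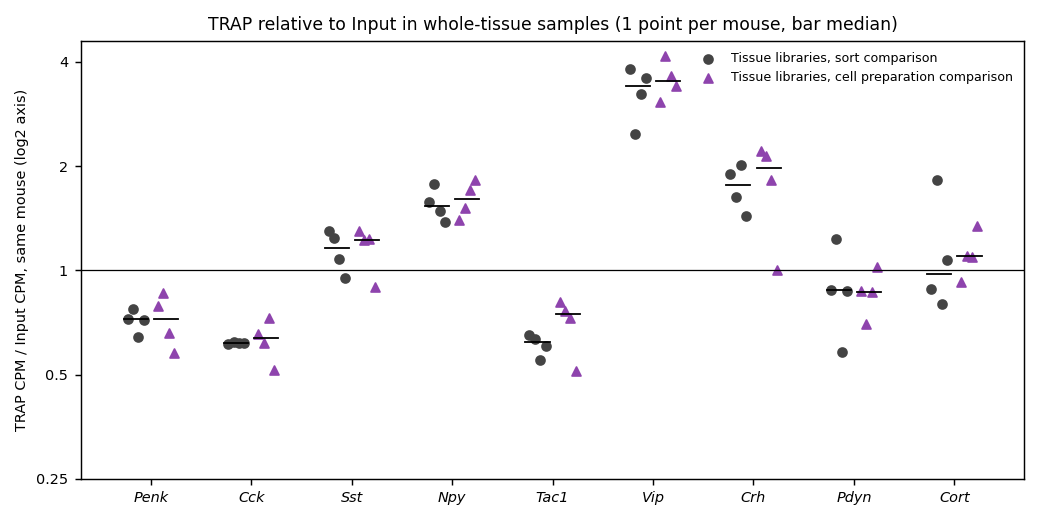
Ratio of TRAP to Input within a mouse (log y axis) in whole tissue for each of the 9 genes (x axis), with 1 point per mouse, bars at the medians, and both comparisons shown. Vip lies between 2.47 and 4.15 in all mice, and Cck between 0.516 and 0.727.

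In cell suspensions TRAP held less neuropeptide RNA than in tissue, Npy included. In Cell-TRAP of the sort comparison all 9 genes were called lower than in Tissue-TRAP, against 29.3% of all genes called lower. Npy was 72.98, 74.03, 62.1, and 65.8 CPM in Tissue-TRAP and 5.49, 0.637, 4.99, and 2.60 CPM in Cell-TRAP (log2 fold change -4.30, SE 0.33, FDR 1.49e-10). Sst was 202, 198, 147, and 136 CPM in Tissue-TRAP and 3.57, 1.75, 0.918, and 0.362 CPM in Cell-TRAP (-6.75, SE 0.34, FDR 2.35e-13). Every Cell-TRAP library was below every Tissue-TRAP library for both genes. Scaling by DESeq2 size factors moved the median of all genes in this comparison from -0.01 to -0.34 on the log2 scale, and the 9 calls held.

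Between Cell-TRAP and Cell-Input of the same mice, 6 of 9 genes were called lower, against 33.2% of all genes called lower. Npy (-3.29, SE 0.46, FDR 3.61e-06), Tac1 (-2.93, SE 0.39, FDR 1.76e-06), Cck (-2.82, SE 0.33, FDR 2.94e-07), and Penk (-2.68, SE 0.35, FDR 1.63e-06) had the largest falls. Sst (-1.76, SE 0.39, FDR 0.000435) and Pdyn (-1.11, SE 0.55, FDR 0.0725) were also called, and the call for Pdyn was lost without the first Cell-Input or the third or the fourth Cell-TRAP library and with the mouse as a block (-1.08, FDR 0.107). Vip was not called (-0.57, FDR 0.29), and was called without the first Cell-TRAP library, which held 42 of its 69 counts. Crh (-0.49, FDR 0.455) and Cort (-0.05, FDR 0.964) were not called.

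The change from Input to TRAP differed between Cell and Tissue for 6 of 9 genes, all more negative in Cell, against 32.7% of all genes called in that direction by the interaction term. All these libraries came from the same mice, and the fit treated them as independent. The interaction was not refitted with the mouse as a block. The difference was largest for Npy (-3.92, SE 0.59, FDR 1.77e-05), the gene not called lower in Cell-Input. It was -2.29 for Vip (FDR 0.0017), -2.22 for Tac1 (FDR 0.000336), -2.20 for Penk (FDR 0.000388), -2.12 for Cck (FDR 0.000153), and -1.96 for Sst (FDR 0.00107). It was -1.26 for Crh (FDR 0.106), -0.88 for Pdyn (FDR 0.233), and -0.19 for Cort (FDR 0.871). Crh was called without the first Cell-TRAP or the second or the third Cell-Input library, and Pdyn without the first Cell-TRAP library. All 9 measured neuronal genes were called in the same direction, with a median of -1.93, and so were all 8 microglial markers (median -1.73), against -0.33 over all genes. Microglial markers summed to 4610 to 6100 CPM in Cell-Input and 29300 to 31200 CPM in Cell-TRAP. Their part in the fall of the neuropeptides was not tested.

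In the cell preparation comparison TRAP was called lower than Input for 7 of 9 genes in Cell, against 36.7% of all genes, for 7 in CellInhib, against 35.8%, and for 7 in Dounce, against 26.7%. The genes not called were Pdyn and Crh in Cell and CellInhib, and Crh and Npy in Dounce. The log2 fold change of Npy was -3.31 in Cell (FDR 2.06e-07), -3.44 in CellInhib (FDR 1.31e-07), and -0.99 in Dounce (FDR 0.0683). That of Penk was -2.89 in Cell, -2.99 in CellInhib, and -1.07 in Dounce (highest FDR 0.00538). The median over all genes was -0.42 in Cell, -0.39 in CellInhib, and -0.21 in Dounce, and -0.29, -0.27, and -0.44 with DESeq2 size factors.

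Several of these calls rested on single libraries. Cort in Cell was called in 3 of 8 fits that left out 1 library (lost without the first, the second, or the fourth Cell-TRAP or the third or the fourth Cell-Input), and in CellInhib it was lost without the third CellInhib-Input. Vip in CellInhib was called in 3 of 8 fits (lost without the first, the second, or the third CellInhib-Input or the first or the third CellInhib-TRAP), and with the mouse as a block it was -1.27 (FDR 0.14). Crh in CellInhib was called without the first or the third CellInhib-Input or the fourth CellInhib-TRAP. In Dounce, Penk and Vip were lost without the first or the fourth Dounce-TRAP, and Pdyn was lost without the first or second Dounce-TRAP or the second Dounce-Input. Npy in Dounce was called without the second or the third library of either fraction and with the mouse as a block (-1.09, FDR 0.0268), and Crh without the second Dounce-TRAP. Without the first Dounce-TRAP library 4 of 9 genes were called in Dounce.

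Against Tissue-TRAP, all 9 genes were called lower in Cell-TRAP (30.8% of all genes) and in CellInhib-TRAP (31.2%), and 8 in Dounce-TRAP (27.1%). Penk was the gene not called in Dounce-TRAP, at 60.3, 98.2, 202, and 67.9 CPM against 211, 217, 175, and 164 CPM in Tissue-TRAP (-0.85, FDR 0.0627). The third Dounce-TRAP library was the highest of its group, and Penk was called without it. Against Cell-TRAP, 7 genes were called higher in Dounce-TRAP (20.7% of all genes), without Pdyn and Cort. Here too a gene could pass the count filter through Tissue-TRAP, and with only the groups compared in the fit 4 of 5 genes tested were called. The call for Npy (1.22, SE 0.57, FDR 0.0784) held in 3 of 8 fits that left out 1 library (lost without the second, the third, or the fourth Cell-TRAP or the second or the third Dounce-TRAP). Between CellInhib-TRAP and Cell-TRAP, 0 of 9 were called in edgeR's quasi-likelihood test, against 0.638% of all genes called, and 0 had an unadjusted p under 0.05. Cort was at the detection limit in these libraries, with counts of 0, 0, 2, and 0 in Cell-TRAP, 0, 2, 0, and 0 in CellInhib-TRAP, and 0, 0, 2, and 0 in Dounce-TRAP.

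In sorted cells the neuropeptide transcripts were found at traces. Against Cell-Input, all 9 genes were called lower in the pooled Input libraries of the 4 sorts (34.7% of all genes called lower, with a median over all genes of -0.09, or -0.30 with DESeq2 size factors). Against Cell-TRAP, 8 were called lower in the sorted TRAP libraries (23.6%), without Pdyn. A gene could pass the count filter of that fit through Tissue-TRAP, which is not compared here. With only the groups compared in the fit, 4 genes were tested in TRAP and all 4 were called. The sorted libraries of a mouse are not independent samples, and with those of each mouse summed the counts were again 9 and 8. Over the 16 sorted Input libraries Sst had 16 counts in all, found in 7 libraries, which is 0.0903 CPM, 1820-fold below the Tissue-Input mean, interval 1120 to 3190. Cck had 15 counts (0.0847 CPM, 2520-fold below the Tissue-Input mean, interval 1530 to 4500) and Penk 45 counts (0.254 CPM, 1020-fold below the Tissue-Input mean, interval 760 to 1390). Npy had the most in the pooled total, 154 counts in 12 of 16 libraries (0.869 CPM, 56.7-fold below the Tissue-Input mean, interval 48.4 to 66.8), but not in each sort. The Tyto libraries held 91 of these counts, with a mean of 1.54 CPM over 5 libraries, and the autoMACS libraries 43, with a mean of 0.760 CPM. The 17 counts of the FACSAria libraries were all in 1 of 4 libraries (mean 0.416 CPM). The autoMACS to Tyto libraries had 3 counts (mean 0.0951 CPM), below Penk (0.322), Pdyn (0.292), and Sst (0.235) in the same sort. Pdyn was found in 14 of 16 libraries with 47 counts and was the least depleted (0.265 CPM, 20.2-fold below the Tissue-Input mean, interval 15.2 to 27.5), and its call against Cell-Input was lost without the first Cell-Input library.

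The rarer genes were at or near 0 after sorting. In sorted Input, Tac1 had 13 counts, Vip 6, Crh 5, and Cort 2 (0.0113 CPM, 229-fold below the Tissue-Input mean, interval 63.5 to 1890). In the 16 sorted TRAP libraries, Vip and Crh had 0 counts, which puts Vip at least 4610-fold and Crh at least 1030-fold below the Tissue-TRAP mean (limit of 3 counts over all sorted TRAP libraries). Cort had 1 count and Tac1 2 counts in sorted TRAP (0.00790 CPM, 2610-fold below the Tissue-TRAP mean, interval 721 to 21500). Npy had 7 counts in 4 libraries (0.0277 CPM, 2490-fold below the Tissue-TRAP mean, interval 1210 to 6180). Pdyn again had 47 counts in 14 of 16 libraries (0.186 CPM, 22.1-fold below the Tissue-TRAP mean, interval 16.6 to 30.1). Intervals of these ratios are 95% Poisson intervals, cover counting error only, and take the Tissue mean as fixed. The summed level of the neuronal genes was 0.184% to 0.312% of the Tissue-Input mean in the 4 sorts.

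Across the 32 libraries of the cell preparation comparison, the genes were also described by the genes most like them. The measure was Pearson's r of log2(CPM + 1), and since the points share preparations, fractions, and mice, r is a description only. Sst was most like Tmem179 (r = 0.991), Rbfox1, and Nptxr, and Cck was most like Svop (0.988), Olfm2, and Ajap1. Penk was most like Sez6 (0.984), Susd4, and Gal3st3, and Tac1 was most like Vgf (0.983), Slc30a3, and Rbfox1. Vip was most like Lhx6 (0.965), Atxn1, and Oxtr, Cort most like Lhfpl5 (0.966), Gripap1, and Agap3, and Crh most like Rnps1 (0.974), Pnoc, and Nell1. Npy was most like Zdhhc2 (0.949), Mgat3, and Rcan2, and Pdyn most like Ampd2 (0.913), Oprd1, and Pnma3. Among the 9 genes themselves the highest r was that of Sst and Cck, 0.977, and the values of Npy with the other 8 lay between 0.515 with Pdyn and 0.770 with Cck. Those of Pdyn lay between 0.515 with Npy and 0.81 with Cort, with 0.667 for Penk and 0.711 for Vip.

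Most genes of other peptide lists were lower in suspension too, against 17.5% of all genes called lower in the sort comparison. Of 19 other neuropeptide precursors tested, 18 were called lower in Cell-Input than in Tissue-Input of the sort comparison and 0 higher (median -3.46). The lowest was Oxt, the oxytocin precursor (-4.91, FDR 6.51e-09), and the highest was Pomc, the precursor of melanocortins and beta-endorphin, which was the one not called (-0.72, FDR 0.141). In the cell preparation comparison 17 of 18 were lower in Cell-Input, against 19.1% of all genes. In Dounce-Input 11 were lower and 1 higher than in Tissue-Input, against 21.4% of all genes called lower. Of 17 genes of peptide processing and dense-core granules, 14 were lower and 1 higher in Cell-Input, from Vgf, a granin-like precursor (-4.45), to Scg3, a granin (1.10). In Dounce-Input 4 of the 17 were lower and 1 higher, which for the lower direction is near the 21.4% of all genes. Of 22 peptide receptors, 17 were lower and 1 higher, from Sstr5 (-6.79) to Sstr4 (1.195), both receptors of somatostatin and cortistatin. In Dounce-Input 8 of 21 receptors were lower and 7 higher (median -0.42), against the same 21.4% of all genes called lower.

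The lists of neuronal classes are given by their counts in Cell-Input of the sort comparison, against 17.5% of all genes called lower, and no difference between lists was tested. All 10 glutamatergic genes were called lower, from Neurod6 (-3.99) to Neurod1 (-1.17), and 9 of 10 striatal genes were, from Drd2, the dopamine receptor of enkephalin neurons (-4.03), to Ppp1r1b (-0.55, not called). All 9 genes of the neuronal reference fell, from Nefm (-4.76) to Stmn2 (-2.34). Of 16 GABAergic interneuron genes, 10 fell and 3 rose, from Slc32a1, the vesicular GABA transporter (-3.37), to Erbb4, a neuregulin receptor (2.87). Of 8 cerebellar granule neuron genes, 3 fell and 1 rose, from Cbln1 (-1.34) to Etv1 (1.05). Of 8 immature neuron genes, 0 fell and 3 rose, from Stmn1 (-0.76, under the fold threshold) to Cd24a (2.19). In Cell-Input of the cell preparation comparison, against 19.1% of all genes called lower, all 10 glutamatergic and 9 of 10 striatal genes fell, 11 interneuron genes fell and 2 rose, and 0 immature neuron genes fell and 3 rose. Of the 8 cerebellar genes 5 fell and 0 rose there, with a median of -2.77 against -0.84 in the sort comparison.

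Markers of other cells lay mostly above 0 in the same comparison. Microglial markers ranged from Aif1 (3.37) to P2ry12 (5.50), endothelial markers from Cldn5 (3.99) to Flt1 (5.48), and ependymal and choroid plexus markers from Ttr (1.88) to Kl (3.65). Oligodendrocyte markers ranged from Mbp (1.40) to Cldn11 (2.23), astrocyte markers from Gfap (-0.07, not called) to Gja1 (2.58), and oligodendrocyte progenitor markers from Pdgfra (0.39, not called) to Olig1 (1.31), with 2 of 4 called higher.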

How the data were processed

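RNA-seq libraries of 48 samples of the sort comparison and 32 of the cell preparation comparison were used. Per the labels and methods, the authors made directional poly(A) libraries, aligned reads to mm10 with strand in Strand NGS, removed duplicates, and dropped genes without over 5 reads in all samples of some group. The deposited raw columns hold estimated counts (33.2% and 20.8% of values were whole), which were rounded here. The deposited log2 columns were normalized by the authors with DESeq2 and baselined to the Tissue-Input median. These served only for limma as an alternative. An earlier table holding part of the cell preparation libraries was not used.

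Counts were tested with edgeR 4.0.16 in R 4.3.3 (quasi-likelihood test, TMM, genes over 5 counts throughout 1 group or more, Benjamini-Hochberg FDR over all genes tested), in 1 fit per table and fraction, and in a joint fit where TRAP was set against Input. The main fits had the group as the only factor and did not include the mouse, which was a block in an alternative only. DESeq2 1.42.0 and limma 3.58.1 were alternatives. Pulldown and preparation effects share mice by design, and the mean correlation of deviations within a mouse was 0.012 to 0.352 over 10 pairs of groups. The values between mice (-0.115 to -0.004) are no separate baseline, since deviations from a group mean cancel out within the group. The test was checked on simulated data. Ratios to neuronal genes added 0.5 counts to a gene, and levels came from 9 of 10 listed neuronal genes, since Map2 was not found. Members and lists were chosen with earlier results of these data known. All 9 members were named, with the highest and lowest gene of each list in Cell-Input against Tissue-Input of the sort comparison and the 3 genes most like each member. Depth limits the rare genes. Intervals and the limit of 3 counts cover counting error only. The coding sequence match of another pair of members is not reported here.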

Additional observations from a re-analysis of the deposited data

Results flagged for a closer look

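In 3 of 85 combinations of gene and group, 1 library stood apart from the others of its group by Dixon's test, and chance gives about 1 in 20. Npy was 1.82 CPM in the second autoMACS-Input library, against 0.266 to 0.490 CPM in the other 3. Pdyn was 1.23 CPM in the first Cell-Input library of the sort comparison, against 0.425 to 0.470 CPM. Cck was 40.6 CPM in the third Dounce-TRAP library, against 6.40 to 11.4 CPM.

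The change from Input to TRAP differed between Cell and Tissue of the sort comparison by the interaction term of edgeR's quasi-likelihood test for 6 genes, in a fit without the mouse. On the log2 scale the difference (Cell minus Tissue) was -3.92 for Npy, -2.29 for Vip, -2.22 for Tac1, -2.20 for Penk, -2.12 for Cck, and -1.96 for Sst. The median over all genes was -0.33.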

How the results depend on the processing

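Of 338 counts of called genes under an alternative or with 1 library left out, 318 were within 1.5 times the main count. No fold change that was called in either setting changed sign, over 984 values under alternatives and 1800 with 1 library left out. With at least 10 counts required in every library fewer genes were tested. The counts were then 4 of 5 for Cell-Input against Tissue-Input (cell preparation), 4 of 5 for CellInhib, 3 of 5 for Dounce, and 4 of 5 for Dounce against Cell. In TRAP they were 2 of 2 for Cell and for CellInhib against Tissue, 1 of 2 for Dounce against Tissue, and 2 of 2 for Dounce against Cell. For TRAP against Input they were 0 of 2 in Tissue of both comparisons, 2 of 2 in Cell of both, CellInhib, and Dounce, and 2 of 2 for the interaction. No member passed that filter in the single-fraction fits of the sort comparison. With only the groups compared in the fit, the counts were 4 of 4 tested for pooled sorts against Cell in TRAP, 4 of 5 for Dounce against Cell in TRAP, and 4 of 8 for Dounce TRAP against Input, and the cause of the last was not tested.

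Leaving out 1 library in turn gave 8 to 9 for pooled sorts against Cell in Input, 4 to 5 for Dounce against Tissue in Input, 6 to 7 for Dounce against Cell in TRAP, and 8 to 9 for Dounce against Tissue in TRAP. For TRAP against Input it gave 5 to 7 in Cell of the sort comparison, 6 to 7 in Cell and 6 to 8 in CellInhib of the cell preparation comparison, 4 to 8 in Dounce, and 6 to 8 for the interaction. The other counts stayed at their main value. With the sorted libraries of each mouse summed, an alternative chosen after seeing the data, pooled sorts against Cell gave 9 of 9 in Input and 8 of 9 in TRAP. With the mouse as a replicate block, Cell against Tissue in the sort comparison gave 8 of 9 in Input and 9 of 9 in TRAP, CellInhib against Cell gave 0 of 7 and 0 of 2, and Tissue TRAP against Input gave 1 in both comparisons. TRAP against Input gave 5 of 7 in Cell of the sort comparison, 6 of 7 in Cell, 5 of 6 in CellInhib, and 7 of 8 in Dounce. Calls of members tested there changed for Pdyn in Cell (sort comparison), Vip in CellInhib, and Npy in Dounce, and for no other. With the geometric mean of the neuronal genes, 7 ratios were called in Dounce against Tissue instead of 4, and that of Cck was 0.19 instead of -0.42; the cause was not tested.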
